A study of Mus musculus with 3 samples.

Results

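Resident macrophages carrying Timd4, Lyve1, Folr2 or Fcna were taken from single-cell RNA libraries of the mouse left ventricle. The members were 2666 cell barcodes, of 45239 that passed the filters and 96654 in all, with 1146 in the library labelled HFpEF-FoxO1-sh, 812 in HFpEF-scr and 708 in Control. A barcode passed with at least 500 unique molecular identifiers (UMIs, counts of distinct captured RNA molecules), at least 300 genes and at most 20% of UMIs from mitochondrial genes. Members were then chosen by their UMI sums: at least 5 over C1qa, C1qb and C1qc (complement C1q, made by tissue macrophages), at least 3 over Timd4, Lyve1, Folr2 and Fcna, at most 5 over the collagens Col1a1 and Col3a1, and fewer than 3 over Spp1, Gpnmb and Arg1. The values of those genes are therefore a description.

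The series holds 3 libraries of C56Bl6 mice, 1 per group, each from 4 pooled samples. HFpEF-FoxO1-sh mice received High-Fat feed with L-NAME over 6 weeks and AAV-FoxO1-sh, an adeno-associated virus with a short hairpin RNA, over 4 weeks. HFpEF-scr mice received the same diet for as long and AAV-scramble-sh for 4 weeks. Control mice ate standard diet for 10 weeks, with no vector named. HFpEF stands for heart failure with preserved ejection fraction, in which the heart fills poorly while it still ejects normally. Diet and vector differ together between HFpEF-scr and Control. Hearts were digested with enzymes, cardiomyocytes were held back by a 70 µm strainer, and no label names the cell types that take up the virus. No group has a replicate library, so there is no test and no p-value. Intervals are at 95% and cover counting error only, and the spread between animals is unknown.

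Resident cardiac macrophages are largely seeded before birth and renew in place, along vessels and between cardiomyocytes. They clear dying cells, take up haemoglobin and debris, and exchange signals with vessels and fibroblasts. In mice they are marked by Timd4 (Tim-4, a receptor for phosphatidylserine on dying cells), Lyve1 (a hyaluronan receptor), Folr2 (a folate receptor) and Fcna (ficolin A, a secreted lectin), whereas macrophages that recently came from blood monocytes carry Ccr2 and high MHC class II.

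The promoters of 3 genes are shown because Timd4 marks the cells and the chemokine gene Ccl8 and the complement receptor gene Vsig4 differed between libraries below. Each is the 250 bases before the gene's start, from RefSeq on GRCm38.p6, 5′ to 3′ on the gene's strand, at chr11:46810549-46810798 on the plus strand for Timd4, chr11:82114935-82115184 on the plus strand for Ccl8 and chrX:96293439-96293688 on the minus strand for Vsig4. Of 8 genes looked for, 7 had an entry, and Lyve1 had none. Capitals mark matches on either strand to GGAAGT (a core of PU.1 and other ETS factors), to the ETS and IRF composite (GGAA and GAAA with a pair of any bases between them) and to TGCTGAC (part of the MAF recognition site).
Timd4: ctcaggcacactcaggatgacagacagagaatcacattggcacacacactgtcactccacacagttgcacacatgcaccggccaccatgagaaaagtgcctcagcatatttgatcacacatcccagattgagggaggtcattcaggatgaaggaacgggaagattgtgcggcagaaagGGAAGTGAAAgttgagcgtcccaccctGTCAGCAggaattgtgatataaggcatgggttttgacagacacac
Ccl8: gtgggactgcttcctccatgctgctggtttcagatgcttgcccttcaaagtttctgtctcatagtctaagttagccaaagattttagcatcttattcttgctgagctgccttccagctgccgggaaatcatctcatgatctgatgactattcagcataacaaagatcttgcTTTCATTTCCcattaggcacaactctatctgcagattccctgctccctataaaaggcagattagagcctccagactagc
Vsig4: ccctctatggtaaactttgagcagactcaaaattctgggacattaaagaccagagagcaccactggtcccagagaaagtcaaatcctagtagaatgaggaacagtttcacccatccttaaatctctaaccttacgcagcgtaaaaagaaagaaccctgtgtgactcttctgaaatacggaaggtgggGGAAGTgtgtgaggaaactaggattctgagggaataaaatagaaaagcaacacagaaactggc
Timd4 held GGAAGT inside the composite from position -72, counted from the start, and the reverse complement of TGCTGAC from -45. Ccl8 held the reverse complement of the composite from -79, and Vsig4 held GGAAGT from -63. Over 32851 promoter windows of that length, 19.7% held GGAAGT, 2.30% the composite and 3.81% TGCTGAC. A match is one of letters only, and nothing here measures binding.

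Foxo1, the transcription factor gene the hairpin is named for, was not lower in the members of the library that carries its name. It had 17.3 CPM in the library labelled HFpEF-FoxO1-sh, 16.1 CPM in HFpEF-scr and 17.1 CPM in Control, where CPM are UMIs of the gene per 1000000 UMIs summed over the members of a library. HFpEF-FoxO1-sh over HFpEF-scr gave 1.07 (0.824 to 1.40). The log2 ratio ran from -0.31 to 1.22 over the alternative settings. With cells thinned to equal depth, Foxo1 was detected in 2.88% of members labelled HFpEF-FoxO1-sh, 2.59% of HFpEF-scr and 2.54% of Control. Fibroblast barcodes held it more often, at 11.96%, 10.54% and 11.97% in that order. How much of the member level was RNA of other cells was not tested. A knockdown is therefore not shown in these cells, and its absence is not shown either. The library is called by its label.

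The median number of UMIs per member was 7107.5 in the library labelled HFpEF-FoxO1-sh, 6547 in HFpEF-scr and 7288 in Control. Their median mitochondrial share was 9.02% in the library labelled HFpEF-FoxO1-sh, 13.2% in HFpEF-scr and 13.8% in Control. All kept barcodes of these libraries differed in the same way, so results are also given on both sides of 10% where they moved. Scrublet, which scores barcodes that may hold a pair of cells, marked members to the number of 11 in the library labelled HFpEF-FoxO1-sh, 18 in HFpEF-scr and 8 in Control. Members whose barcode also occurred in another library numbered 12 in the library labelled HFpEF-FoxO1-sh, 17 in HFpEF-scr and 13 in Control, and 0 barcodes were members in more than 1 library.

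RNA of other cell types was found in members and was uneven between libraries. The 4 neutrophil markers summed to 2.90 CPM in the library labelled HFpEF-FoxO1-sh, 142 CPM in HFpEF-scr and 2.54 CPM in Control, and 3 HFpEF-scr members held at least 5 of these UMIs. The 5 red cell genes summed to 9326 CPM in the library labelled HFpEF-FoxO1-sh, 7002 CPM in HFpEF-scr and 10369.5 CPM in Control. The 5 cardiomyocyte markers summed to 68.0 CPM in the library labelled HFpEF-FoxO1-sh, 43.0 CPM in HFpEF-scr and 44.3 CPM in Control. The 5 fibroblast markers summed to 68.0 CPM in the library labelled HFpEF-FoxO1-sh, 93.4 CPM in HFpEF-scr and 67.0 CPM in Control. The 4 lymphatic endothelial markers summed to 141 CPM in the library labelled HFpEF-FoxO1-sh, 73.9 CPM in HFpEF-scr and 100 CPM in Control. Members with at least 5 of these UMIs numbered 3, 4 and 3 in that order. The 6 monocyte markers summed to 58.0 CPM in the library labelled HFpEF-FoxO1-sh, 103 CPM in HFpEF-scr and 50.8 CPM in Control. Their part in the results below was not tested, beyond the values given without barcodes that held at least 5 UMIs of other cell types. Those UMIs were summed over the markers of all other cell types except red cells, with Ccr2 and Plac8 among the monocyte markers. Haemoglobin-rich cells, with over 50 haemoglobin UMIs, were left out as a separate setting.

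Cd163, a scavenger receptor for haemoglobin bound to haptoglobin, is a resident marker that the choice of cells did not use. With every cell thinned to 2000 UMIs it was detected in 55.6% of members labelled HFpEF-FoxO1-sh, 56.5% of HFpEF-scr and 57.3% of Control. It was detected in 13.7% of other macrophages labelled HFpEF-FoxO1-sh, 15.1% of HFpEF-scr and 20.0% of Control, which are C1q macrophages with fewer than 3 resident UMIs. Fibroblasts should lack the gene, and it was detected in 0.0192% of fibroblast barcodes labelled HFpEF-FoxO1-sh, 0.0628% of HFpEF-scr and 0.0117% of Control. Members of each library thus carried it more widely than the other macrophages, as the name resident macrophage implies. Of the 4 resident genes of the rule, Folr2 was detected in the most members, 87.9% of members labelled HFpEF-FoxO1-sh, 83.2% of HFpEF-scr and 86.6% of Control, an order that the rule takes part in setting. Timd4 was detected in 32.0% of members labelled HFpEF-FoxO1-sh, 23.6% of HFpEF-scr and 31.2% of Control after thinning. Before it, the shares were 61.9% of members labelled HFpEF-FoxO1-sh, 49.5% of HFpEF-scr and 65.7% of Control, so a member without a Timd4 UMI cannot be called negative.

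At the edge of the rule, members with exactly 3 resident UMIs numbered 56 in the library labelled HFpEF-FoxO1-sh, 67 in HFpEF-scr and 44 in Control, with Cd163 at 285 CPM in the library labelled HFpEF-FoxO1-sh, 357 CPM in HFpEF-scr and 289 CPM in Control. Barcodes with 2, just outside, numbered 62 in the library labelled HFpEF-FoxO1-sh, 60 in HFpEF-scr and 38 in Control, with Cd163 at 291 CPM in the library labelled HFpEF-FoxO1-sh, 342 CPM in HFpEF-scr and 227 CPM in Control. Members with 10 or more resident UMIs made up 72.4% in the library labelled HFpEF-FoxO1-sh, 59.2% in HFpEF-scr and 72.3% in Control, and had Cd163 at 712 CPM in the library labelled HFpEF-FoxO1-sh, 707 CPM in HFpEF-scr and 786 CPM in Control. The collagen limit kept out 109 barcodes of the library labelled HFpEF-FoxO1-sh, 74 of HFpEF-scr and 59 of Control that met the resident limit. The limit on Spp1, Gpnmb and Arg1 kept out 6 of the library labelled HFpEF-FoxO1-sh, 4 of HFpEF-scr and 0 of Control. Each library had 1 member with a C1q sum of 5 to 9. Those of HFpEF-scr and Control had Lyve1 at 1006 and 1947 CPM and Cd163 and Folr2 at 0 CPM. The member labelled HFpEF-FoxO1-sh had Cd163 at 853 CPM.

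Residents held a higher share of kept barcodes in the library labelled HFpEF-FoxO1-sh, at 6.59% (6.23 to 6.97), than in HFpEF-scr, at 5.45% (5.09 to 5.82), and Control, at 5.47% (5.09 to 5.88). HFpEF-FoxO1-sh over HFpEF-scr gave 1.21 (1.10 to 1.33), and HFpEF-scr over Control gave 0.995 (0.899 to 1.10). As a share of all C1q macrophages, residents stood at 53.8% (51.6 to 55.9) for HFpEF-FoxO1-sh, 47.7% (45.3 to 50.1) for HFpEF-scr and 59.2% (56.4 to 62.0) for Control. Barcodes that met the resident limit were thus a smaller part of C1q macrophages in HFpEF-scr than in Control, with a ratio of 0.806 (0.728 to 0.893). The limit of 3 resident UMIs sets these shares and that of the other macrophages. Members with exactly 3 were 8.25% in HFpEF-scr and 6.21% in Control, and each resident gene of the rule had lower CPM in HFpEF-scr members. Fewer resident cells and fewer resident UMIs per cell cannot be told apart. The other macrophages made up 5.51% of kept barcodes for HFpEF-FoxO1-sh, 5.63% for HFpEF-scr and 3.64% for Control, and HFpEF-scr over Control gave 1.55 (1.38 to 1.73).

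The higher share in the library labelled HFpEF-FoxO1-sh lay among barcodes with few mitochondrial UMIs. With at most 10%, members were 7.01% of kept barcodes for HFpEF-FoxO1-sh, 3.60% for HFpEF-scr and 3.16% for Control. They numbered 712 for HFpEF-FoxO1-sh, but 124 for HFpEF-scr and 82 for Control. When cells were also thinned to 2000 UMIs, HFpEF-scr had 95 and Control 83. Values below with at most 10% rest on these few HFpEF-scr and Control cells. Between 10% and 20% members were 5.99% for HFpEF-FoxO1-sh, 6.00% for HFpEF-scr and 6.05% for Control, and numbered 434, 688 and 626. HFpEF-FoxO1-sh over HFpEF-scr was 1.95 in the lower band and 0.999 in the upper one. The share of C1q macrophages had ratios of 1.29 and 0.882 for that comparison, so it turned over between the bands. For HFpEF-scr over Control it was 0.778 and 0.808, below 1 in both. Shares can also be set by how cells are released and strained, whose part was not tested.

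**Figure D1:**
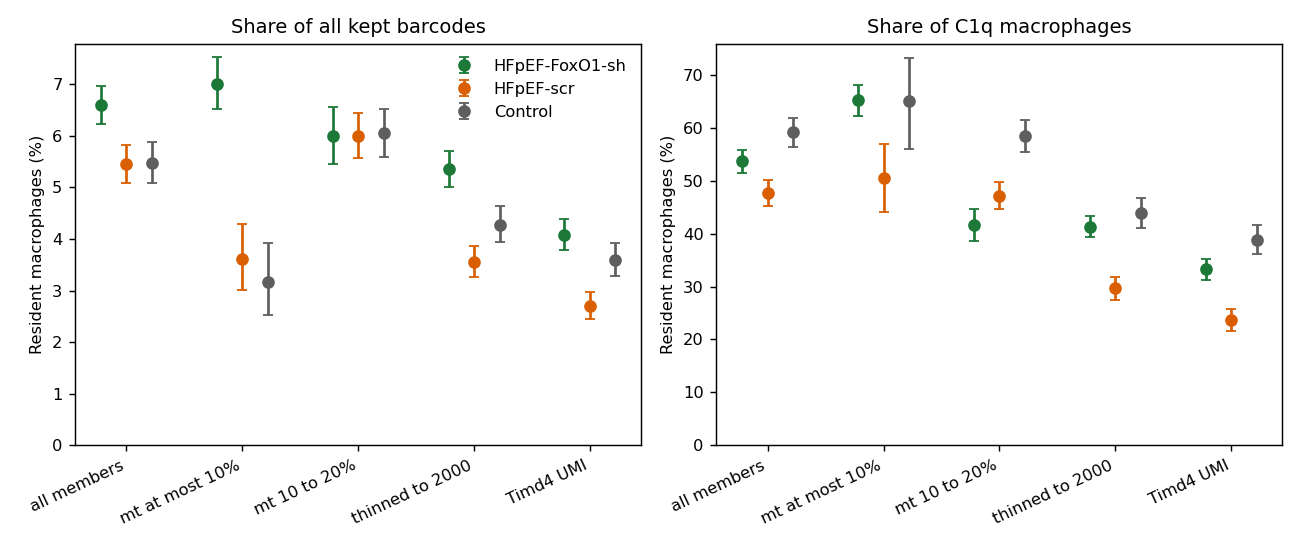
Share of resident macrophages among kept barcodes (left) and among C1q macrophages (right), in percent, for HFpEF-FoxO1-sh, HFpEF-scr and Control under 5 settings. Points are libraries and bars are exact 95% binomial intervals. With at most 10% mitochondrial UMIs the points of the left panel stand at 7.01%, 3.60% and 3.16% for HFpEF-FoxO1-sh, HFpEF-scr and Control, and between 10% and 20% at 5.99%, 6.00% and 6.05%.

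Set beside other macrophages of the same library, members differed as the rule made them differ, so this is a description. Of 6926 genes with at least 100 UMIs over members and other macrophages of each library, 575 were at least 1.5-fold higher in members in all 3 libraries and 200 at least 1.5-fold lower. With the genes of the rule left out and genes ranked by the lowest of their 3 ratios, the 10 highest were Cd209g, Cd209f, Ednrb, Ccl8, Cd209d, Colec12, Ltc4s, Vsig4, C4b and Gypc. They include lectins of the CD209 family, an endothelin receptor (Ednrb), a scavenger receptor (Colec12), leukotriene C4 synthase (Ltc4s) and complement C4 (C4b). Ranked by the highest of their 3 ratios, the 10 lowest were Ear2, Tnip3, Mmp12, Sema4d, Ccr2, Il1b, Rgs1, Ramp1, Cd69 and Bcl2a1d. Ednrb had 235 CPM in members against 11.4 CPM in other macrophages of the library labelled HFpEF-FoxO1-sh, 199 CPM in members against 6.06 CPM in other macrophages of HFpEF-scr, and 244 against 7.28 CPM in those of Control. Ccr2, the receptor monocytes follow into tissue, had 53.7 CPM in members against 576 CPM in other macrophages of the library labelled HFpEF-FoxO1-sh, 76.9 CPM in members against 603 CPM in other macrophages of HFpEF-scr, and 48.6 against 526 CPM in those of Control. By list, 21 of 23 other resident genes and 9 of 18 genes of haem and iron handling were higher in members in all 3 libraries, while 7 of 7 MHC class II genes were lower. Of 9 monocyte-derived genes, only 2 were lower in all 3 and 0 higher. Lists that went both ways were lipid-associated genes, with 8 higher and 5 lower of 17, and chemokines, with 7 and 4 of 15. Growth factors and cytokines had 6 higher and 1 lower of 11.

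**Figure D2:**
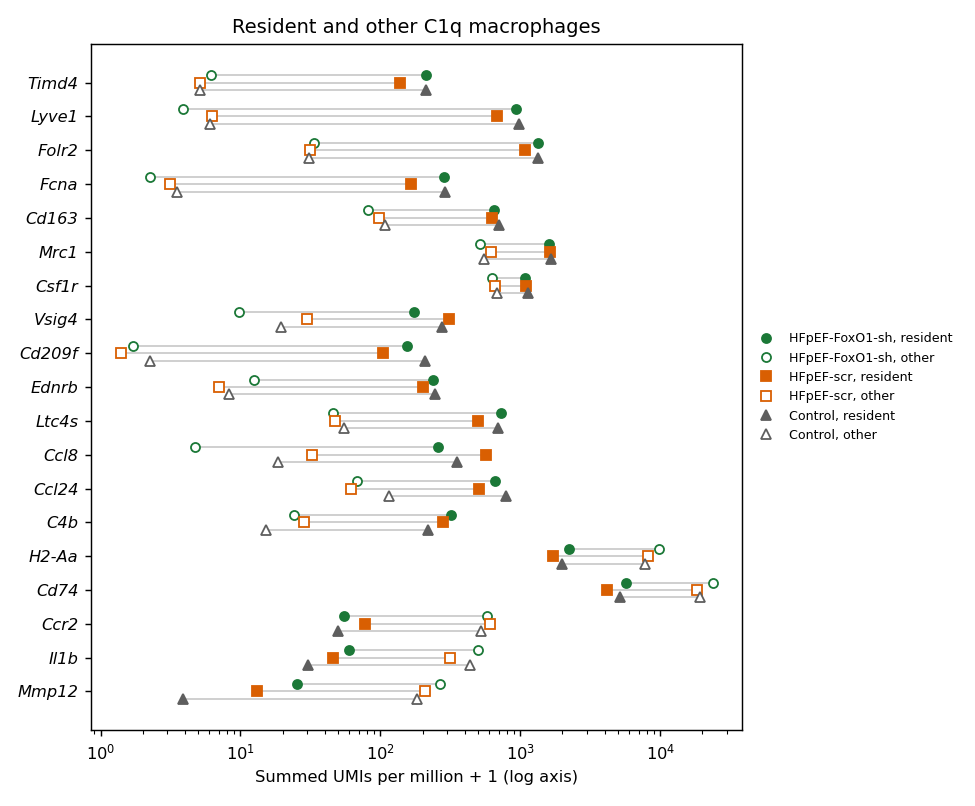
CPM plus 1, on a log axis, of 19 genes in resident macrophages (filled) and other C1q macrophages (open) of HFpEF-FoxO1-sh, HFpEF-scr and Control. Ednrb lies at 235, 199 and 244 CPM in residents of HFpEF-FoxO1-sh, HFpEF-scr and Control, and Ccr2 is higher in the other macrophages of all 3.

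Members divided by MHC class II, the proteins that present antigen to helper T cells. At 2000 UMIs per cell, those with 0 or 1 MHC class II UMI were 49.1% in the library labelled HFpEF-FoxO1-sh, 56.4% in HFpEF-scr and 48.6% in Control. Those with 5 or more were 41.3% in the library labelled HFpEF-FoxO1-sh, 35.1% in HFpEF-scr and 40.1% in Control, and those between were 9.53% in the library labelled HFpEF-FoxO1-sh, 8.51% in HFpEF-scr and 11.3% in Control. Each library thus had a group of cells almost without these transcripts and another with many. H2-Aa, an MHC class II chain, was detected in 50.5% of members labelled HFpEF-FoxO1-sh, 42.9% of HFpEF-scr and 49.3% of Control, against 93.5% of other macrophages labelled HFpEF-FoxO1-sh, 90.0% of HFpEF-scr and 91.7% of Control. Members with 5 or more MHC class II UMIs had less Lyve1 than those with 0 or 1, at 589.9 against 1119 CPM in the library labelled HFpEF-FoxO1-sh, 432 against 832 CPM in HFpEF-scr, and 764 against 1019 CPM in Control. They also had less Fcna, at 141 against 351 CPM in the library labelled HFpEF-FoxO1-sh, 87.7 against 186 CPM in HFpEF-scr, and 153 against 282 CPM in Control. Ccr2 went the other way, at 114 against 5.34 CPM in the library labelled HFpEF-FoxO1-sh, 200 against 9.85 CPM in HFpEF-scr, and 109 against 1.45 CPM in Control. These orders were the same in all 3 libraries. Members with exactly 3 resident UMIs had H2-Aa at 6580 CPM in the library labelled HFpEF-FoxO1-sh, 3374 CPM in HFpEF-scr and 5797 CPM in Control. Barcodes with 2, outside the rule, had 6247, 4878 and 4093 CPM in that order. Members with 10 or more had 1531, 995 and 1401 CPM. Ccr2 was likewise higher with 3, at 177, 136 and 161 CPM, than with 10 or more, at 38.2, 60.5 and 28.0 CPM. Those with 3 were 4.89%, 8.25% and 6.21% of members.

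**Figure D3:**
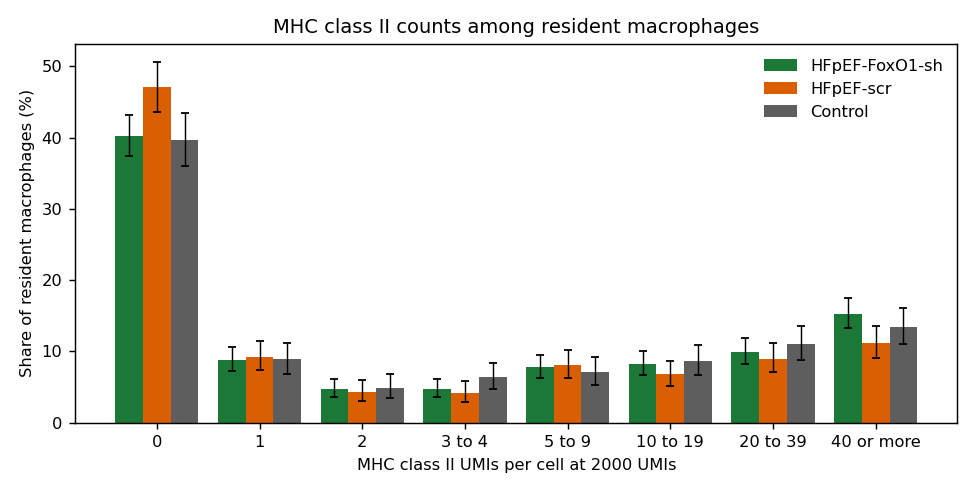
Share of resident macrophages, in percent, by the number of MHC class II UMIs in a cell thinned to 2000 UMIs, for HFpEF-FoxO1-sh, HFpEF-scr and Control, with exact 95% binomial intervals. Cells with none were 40.3% in HFpEF-FoxO1-sh, 47.1% in HFpEF-scr and 39.7% in Control, and cells with 40 or more were 15.3%, 11.2% and 13.4%.

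Members with a Timd4 UMI in the thinned counts more often held Lyve1 than those without, at 73.5% against 60.2% in the library labelled HFpEF-FoxO1-sh, 66.0% against 54.2% in HFpEF-scr, and 77.4% against 60.0% in Control. They less often held Ccr2, at 1.37% against 5.40% in the library labelled HFpEF-FoxO1-sh, 2.09% against 8.23% in HFpEF-scr, and 1.36% against 4.52% in Control. Both orders held in the 3 libraries, among cells that share a library and were chosen on Timd4 and Lyve1.

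Cd209f and Cxcl13 were found in few members. At 2000 UMIs Cd209f was detected in 6.82% of members labelled HFpEF-FoxO1-sh, 6.17% of HFpEF-scr and 10.5% of Control. Of other macrophages, 0 of 928 labelled HFpEF-FoxO1-sh held it, which allows up to 0.323%, 0 of 832 of HFpEF-scr, which allows up to 0.361%, and 0.426% of Control. Among fibroblast barcodes the highest share, in Control, was 0.0117%. In the unthinned counts, where the libraries differ in depth, a Cd209f UMI was found in 102 (8.90%, 7.32 to 10.7) members of the library labelled HFpEF-FoxO1-sh, 69 (8.50%, 6.67 to 10.6) of HFpEF-scr and 104 (14.7%, 12.2 to 17.5) of Control. Those cells held nearly all UMIs of the related lectin Cd209g, 98.2% in the library labelled HFpEF-FoxO1-sh, 98.2% in HFpEF-scr and 97.4% in Control. They also held much of Mmp9 (gelatinase B, a matrix protease), 41.2% in the library labelled HFpEF-FoxO1-sh, 41.3% in HFpEF-scr and 45.1% in Control. Cxcl13, a chemokine that draws B cells, was detected at 2000 UMIs in 2.62% of members labelled HFpEF-FoxO1-sh, 3.70% of HFpEF-scr and 4.38% of Control, against 0.323% of other macrophages labelled HFpEF-FoxO1-sh, 0.962% of HFpEF-scr and 1.06% of Control. Fibroblast barcodes held it at 0.00958% in the library labelled HFpEF-FoxO1-sh, 0.0314% in HFpEF-scr and 0.0233% in Control. Unthinned, it was found in 43 (3.75%, 2.73 to 5.02) members of the library labelled HFpEF-FoxO1-sh, 45 (5.54%, 4.07 to 7.35) of HFpEF-scr and 42 (5.93%, 4.31 to 7.93) of Control. Reads of near-identical genes (the Cd209 lectins, the haemoglobin genes) may have been split or dropped in counting, which makes their levels uncertain. The related chemokine genes Ccl8 and Ccl12 were detected apart. At 2000 UMIs, 0.647% of other macrophages labelled HFpEF-FoxO1-sh, 2.28% of HFpEF-scr and 1.91% of Control held Ccl8. For Ccl12 these shares were 17.6%, 22.1% and 20.6%. Whether the pair shares any reads was not tested.

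Set against Control, members of HFpEF-scr had less of the CD209 lectins, Ccl24 and Mmp9 and more of the lipid droplet gene Plin2, the chemokines Ccl8 and Ccl12, and Gdf15. A gene is called higher or lower with a CPM ratio of at least 1.5 or at most its inverse, an interval that excludes 1 and at least 20 UMIs over both libraries. Over all 11046 genes tested outside the rule, 235 (2.13%) were higher and 233 (2.11%) lower, with a median log2 ratio of 0.00063 at a pseudocount of 1 CPM.

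Of the 4 resident genes that chose the cells, Timd4 had 137 CPM in HFpEF-scr and 212 CPM in Control, a ratio of 0.646. Fcna had 164 CPM in HFpEF-scr and 289 CPM in Control, a ratio of 0.566. Lyve1 had 676 CPM in HFpEF-scr and 982 CPM in Control, and Folr2 had 1086 CPM in HFpEF-scr and 1327 CPM in Control. All 4 were thus lower in HFpEF-scr, Timd4 and Fcna past 1.5-fold. The log2 ratio of Timd4 was -0.94 with at most 10% mitochondrial UMIs and -0.56 between 10% and 20%, and -0.33 when cells were thinned to 2000 UMIs before the rule was applied.

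Other resident genes had 1 higher and 4 lower of 25, with a median log2 ratio of -0.16. Cd209f had 103 CPM in HFpEF-scr and 206 CPM in Control, a ratio of 0.499 (0.451 to 0.551). Cd209g at 0.498 and Cd209d at 0.566 were lower as well. Ccl24 (eotaxin-2, which draws eosinophils) had 507 CPM in HFpEF-scr and 789 CPM in Control, a ratio of 0.642 (0.613 to 0.673). The higher gene was Cd5l, a secreted protein of tissue macrophages, with 20 UMIs in HFpEF-scr and 4 in Control, of which 14 came from 1 HFpEF-scr cell. Cd163 had 624 CPM in HFpEF-scr and 698 CPM in Control, within the limit. Of 12 general macrophage genes 0 were higher and 0 lower, with Mrc1 (the mannose receptor) at a ratio of 0.986, Csf1r (the receptor that sustains macrophages) at 0.975, Cd68 at 0.983 and Adgre1 (F4/80) at 1.09.

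Genes of fatty acid handling, many of them targets of PPAR receptors, had 5 higher and 0 lower of 22. Plin2, which coats lipid droplets, had 262 CPM in HFpEF-scr and 148 CPM in Control, a ratio of 1.77 (1.62 to 1.92). Slc27a1, a fatty acid transporter, had 28.7 CPM in HFpEF-scr and 8.35 CPM in Control, a ratio of 3.44 (2.47 to 4.88). Cpt1a, which admits fatty acids to mitochondria, had 70.2 CPM in HFpEF-scr and 41.0 CPM in Control, a ratio of 1.71 (1.45 to 2.02). These 3 were higher on both sides of 10% mitochondrial UMIs: the log2 ratio was 1.30 below and 0.66 above for Plin2, 1.23 and 1.77 for Slc27a1, and 0.91 and 0.70 for Cpt1a. Plin2 was detected at 2000 UMIs in 39.5% of members labelled HFpEF-FoxO1-sh, 35.1% of HFpEF-scr and 24.4% of Control, against 13.8% of fibroblast barcodes labelled HFpEF-FoxO1-sh, 11.3% of HFpEF-scr and 9.48% of Control. Other macrophages stood in the same order, at 30.8% of other macrophages labelled HFpEF-FoxO1-sh, 25.8% of HFpEF-scr and 19.1% of Control. Slc27a1 was detected in 4.196% of members labelled HFpEF-FoxO1-sh, 6.29% of HFpEF-scr and 1.27% of Control, and its share was also lowest in Control among other macrophages, at 2.59% of other macrophages labelled HFpEF-FoxO1-sh, 3.97% of HFpEF-scr and 1.28% of Control. Fibroblast barcodes held Slc27a1 at 2.37% in the library labelled HFpEF-FoxO1-sh, 2.75% in HFpEF-scr and 2.52% in Control. The Control share of members lay below the Control share of fibroblasts. Whether fibroblasts make this RNA themselves was not tested. Angptl4, a secreted lipase inhibitor, had 39 UMIs in HFpEF-scr and 6 in Control, and Pdk4, which turns pyruvate away from oxidation, had 32 UMIs in HFpEF-scr and 2 in Control. The median log2 ratio of the list was 0.076, with 13 ratios above 1. Cholesterol synthesis had 0 called of 19, cholesterol efflux 0 of 10, and nuclear genes of oxidative phosphorylation 0 of 26.

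Chemokines had 3 higher and 3 lower of 16. Ccl8, a monocyte attractant, had 571 CPM in HFpEF-scr and 354 CPM in Control, a ratio of 1.61 (1.53 to 1.71). Its log2 ratio was 0.69, and ran from 0.15 to 0.86 over the alternative settings. Ccl12, another ligand for monocytes, had 569.7 CPM in HFpEF-scr and 345 CPM in Control, a ratio of 1.65 (1.56 to 1.75). Cxcl1, a neutrophil attractant, had a ratio of 1.58 (1.40 to 1.80), with a log2 ratio of 0.12 with at most 10% mitochondrial UMIs and 0.79 above, and -0.64 with at most 10% in thinned cells. Lower beside Ccl24 were Cxcl13 and Cxcl9. Cxcl13 had 121 CPM in HFpEF-scr and 355 CPM in Control, but 1 Control cell held 570 of 1956 Control UMIs. Without the highest cell of each library its log2 ratio was -1.33, against -1.54 over all members, and it was -0.49 between 10% and 20% mitochondrial UMIs. Cxcl9, an interferon-gamma target that draws T cells, came from 6 members of HFpEF-scr and 10 of Control.

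Other secreted factors had 2 higher and 1 lower of 13. Gdf15, a stress-induced hormone, had 105 CPM in HFpEF-scr and 58.6 CPM in Control, a ratio of 1.80 (1.57 to 2.07). Areg (amphiregulin, a ligand of the EGF receptor) had 65 UMIs in HFpEF-scr and 20 in Control. Bmp2, a ligand of the TGF-beta family, was lower with 40.9 CPM in HFpEF-scr and 64.2 CPM in Control, a ratio of 0.637 (0.539 to 0.753). Among 23 inflammatory genes, Il10, Il1b, Il1rn and Clec4e were higher and Ptgs2 (cyclooxygenase 2) lower. Clec4e, a lectin that neutrophils also carry, had 20 UMIs in 10 members of HFpEF-scr and 4 in 1 of Control. Il10, an anti-inflammatory cytokine, had 86 UMIs in 31 members of HFpEF-scr and 16 in 10 of Control, a ratio of 5.03 (2.93 to 9.20). Il1b, a central inflammatory cytokine, had a ratio of 1.53 and a log2 ratio of -0.17 without barcodes holding other-cell RNA. Ccr2 and Plac8 help to mark those barcodes. Il1b, like Ccr2, was higher in other macrophages than in members in all 3 libraries. Leaving those barcodes out therefore cannot show where Il1b came from.

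Id2, an inhibitor of helix-loop-helix factors, had 224 CPM in HFpEF-scr and 131 CPM in Control, a ratio of 1.71 (1.56 to 1.87), the 1 called of 18 lineage factors. Its log2 ratio was 0.50 with at most 10% mitochondrial UMIs and 0.82 above, and turned to -0.31 with at most 10% in thinned cells. Glucocorticoid targets went both ways. Tsc22d3 (GILZ) had 423 CPM in HFpEF-scr and 268 CPM in Control, a ratio of 1.58 (1.48 to 1.69), and Per1 was higher at 1.51. Il1r2, a decoy receptor that neutrophils also carry, was called higher from 21 UMIs in 8 members of HFpEF-scr, 8 of them in 1 cell, and 2 in 1 of Control. The neutrophil markers given above were also higher in HFpEF-scr than in Control. Without barcodes holding other-cell RNA, Il1r2 and Clec4e had under 20 UMIs over both libraries and so no ratio. Fkbp5, an immunophilin, had 19.02 CPM in HFpEF-scr and 33.7 CPM in Control, a ratio of 0.564 (0.442 to 0.716). Cd300a, an inhibitory receptor, was the 1 called of 18 efferocytosis genes, at 1.54. C3 was the 1 called of 10 complement genes, at 1.87, and had a log2 ratio of -0.36 in thinned cells. Sdf2l1, of the endoplasmic reticulum, was the 1 called of 17 in the unfolded protein response, lower at 0.635. Tfeb, a regulator of lysosomal genes, was the 1 called of 24 in the lysosome list, lower at 0.653.

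MHC class II had 0 called higher and 0 lower of 8, with 1 ratio above 1 and a median log2 ratio of -0.21. Cd74, the invariant chain, had a ratio of 0.797, H2-Aa 0.858, H2-Ab1 0.856 and H2-Eb1 0.890. The median was 0.32 with at most 10% mitochondrial UMIs and -0.26 above, so its direction differed between the bands. The lower band held only 124 members of HFpEF-scr and 82 of Control. Interferon genes had 3 higher and 2 lower of 30, with 18 ratios above 1 and a median log2 ratio of 0.032. The list summed to 7490 CPM in HFpEF-scr and 6469 CPM in Control. Usp18, of this list, had a log2 ratio of 0.65, and 0.33 to 0.72 over the alternative settings that measured it. The 2 called lower were Gbp3 at 0.555 and Igtp at 0.648, both interferon-gamma-induced GTPases. Gbp3 turned to a log2 ratio of 0.20 with at most 10% mitochondrial UMIs. Of 11 monocyte genes, Ccr2 was higher at 1.58, as were Plac8, with 129 UMIs in 9 HFpEF-scr members against 3 in Control, and Hp, with 23 UMIs in 4 HFpEF-scr members and 0 in Control. Hp too had under 20 UMIs without barcodes holding other-cell RNA. Plac8 did as well, but Plac8 and Ccr2 are among the genes that mark those barcodes. Leaving them out therefore cannot show where Plac8 or Ccr2 came from. Thbs1 (thrombospondin) was lower, but 1 Control cell held 97 of its 113 Control UMIs and without the highest cells its log2 ratio was 0.33.

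Among genes with at least 100 UMIs over both libraries and a UMI in at least 20 members of the higher one, the 12 highest ratios were those of Il10, Slc27a1, Hist1h2ae, Lum, Plxdc2, Rapgef5, Cytip, Ebf1, Plaur, Aspa, Prr5l and Gm8186, between 5.03 and 1.92. Lum, a fibroblast proteoglycan, and Ebf1, a transcription factor of fat and stromal cells, had log2 ratios of -0.19 and -0.016 in thinned cells. The 12 lowest were those of Cxcl13, Prnp, Mmp9, Sparc, Icam2, Serpinh1, Cd209g, Cd209f, Ms4a8a, Hbb-bt, Spout1 and Abhd6, between 0.341 and 0.546. Mmp9 had 42.0 CPM in HFpEF-scr and 98.2 CPM in Control, a ratio of 0.427 (0.366 to 0.498). Prnp, the prion protein gene, and Sparc, a matrix protein gene, had log2 ratios of 0.0076 and 0.041 without barcodes holding other-cell RNA. Hbb-bt turned to 0.40 without haemoglobin-rich cells.

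**Figure D4:**
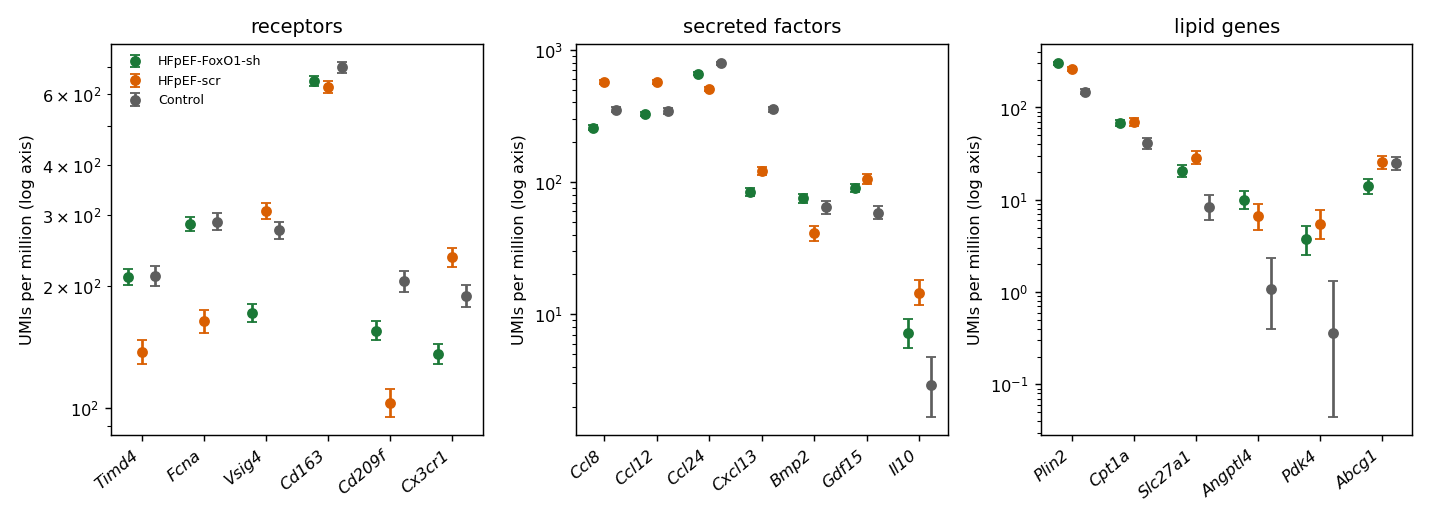
CPM, on log axes, of receptors, secreted factors and lipid genes in resident macrophages of HFpEF-FoxO1-sh, HFpEF-scr and Control, with exact 95% Poisson intervals. Ccl8 stands at 258 CPM in HFpEF-FoxO1-sh, 571 in HFpEF-scr and 354 in Control, and Plin2 at 301, 262 and 148 CPM.

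Set against HFpEF-scr, members of the library labelled HFpEF-FoxO1-sh had less Ccl8, Ccl12, Vsig4 and Cx3cr1 and more Bmp2, Cd209f and Gbp3. Over all 11376 genes tested, 235 (2.07%) were higher and 249 (2.19%) lower, with a median log2 ratio of 0.034. Without mitochondrial, haemoglobin and Malat1 UMIs in the denominator, 186 were higher and 290 lower. HFpEF-scr stands in both comparisons, so a gene that is high or low in that library tends to move opposite ways in them, and the values of all 3 libraries are given side by side.

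Of the genes that chose the cells, Timd4 had 211 CPM in the library labelled HFpEF-FoxO1-sh, 137 CPM in HFpEF-scr and 212 CPM in Control. Fcna had 285 CPM in the library labelled HFpEF-FoxO1-sh, 164 CPM in HFpEF-scr and 289 CPM in Control. Lyve1 had 925 CPM in the library labelled HFpEF-FoxO1-sh, 676 CPM in HFpEF-scr and 982 CPM in Control, and Folr2 had 1330.4 CPM in the library labelled HFpEF-FoxO1-sh, 1086 CPM in HFpEF-scr and 1327 CPM in Control. All 4 stood lowest in HFpEF-scr, and Timd4 and Fcna were past 1.5-fold in HFpEF-FoxO1-sh over HFpEF-scr. The log2 ratio of Timd4 was 0.68 with at most 10% mitochondrial UMIs and 0.54 between 10% and 20%, and 0.35 in thinned cells. That of Fcna turned to -0.13 with at most 10% in thinned cells.

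Other resident genes had 1 higher and 1 lower of 25, with a median log2 ratio of 0.13. The higher one was Cd209f, with 155 CPM in the library labelled HFpEF-FoxO1-sh, 103 CPM in HFpEF-scr and 206 CPM in Control, a ratio of 1.51 (1.37 to 1.67) over HFpEF-scr. The lower one was Vsig4, a receptor for fragments of complement C3, with 171 CPM in the library labelled HFpEF-FoxO1-sh, 308 CPM in HFpEF-scr and 275 CPM in Control, a ratio of 0.556 (0.519 to 0.596). At 2000 UMIs, Vsig4 was detected in 12.0% of members labelled HFpEF-FoxO1-sh, 18.6% of HFpEF-scr and 16.0% of Control, against 1.08% of other macrophages labelled HFpEF-FoxO1-sh, 2.64% of HFpEF-scr and 2.55% of Control. Its log2 ratio was -0.49 with at most 10% mitochondrial UMIs and -1.02 above. Cd163 had a ratio of 1.03 (0.992 to 1.08) and Mrc1 of 0.990. Cx3cr1, the fractalkine receptor, was the 1 called of 12 general macrophage genes, with 136 CPM in the library labelled HFpEF-FoxO1-sh, 236 CPM in HFpEF-scr and 189 CPM in Control, a ratio of 0.576 (0.533 to 0.624).

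Chemokines had 0 higher and 3 lower of 16, the lower ones being Ccl8, Ccl12 and Cxcl9. Ccl8 had 258 CPM in the library labelled HFpEF-FoxO1-sh, 571 CPM in HFpEF-scr and 354 CPM in Control, a ratio of 0.452 (0.429 to 0.477) over HFpEF-scr. Ccl12 had 327 CPM in the library labelled HFpEF-FoxO1-sh, 569.7 CPM in HFpEF-scr and 345 CPM in Control, a ratio of 0.574 (0.546 to 0.604). Both were lower on each side of 10% mitochondrial UMIs, Ccl8 with log2 ratios of -1.54 below and -1.07 above, and Ccl12 with -0.77 and -1.10. At 2000 UMIs Ccl8 was detected in 16.5% (14.4 to 18.8) of members labelled HFpEF-FoxO1-sh, 19.4% (16.7 to 22.2) of HFpEF-scr and 13.8% (11.4 to 16.6) of Control. Detection in other cells was highest in HFpEF-scr as well. It was 0.647% of other macrophages labelled HFpEF-FoxO1-sh, 2.28% of HFpEF-scr and 1.91% of Control. Among fibroblast barcodes it was 1.28% of those labelled HFpEF-FoxO1-sh, 2.03% of HFpEF-scr and 0.968% of Control. Whether these cells make Ccl8 themselves was not tested. The highest cell held 101 Ccl8 UMIs in the library labelled HFpEF-FoxO1-sh, 286 in HFpEF-scr and 190 in Control.

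Bmp2 had 75.6 CPM in the library labelled HFpEF-FoxO1-sh, 40.9 CPM in HFpEF-scr and 64.2 CPM in Control, a ratio of 1.85 (1.59 to 2.15) over HFpEF-scr, and was the 1 growth factor or cytokine higher of 13. Areg was the 1 lower, at 0.621. Abcg1, which exports cholesterol, was the 1 called of 10 efflux genes, with 13.9 CPM in the library labelled HFpEF-FoxO1-sh, 25.5 CPM in HFpEF-scr and 24.9 CPM in Control, a ratio of 0.547 (0.427 to 0.700). Abca1, a related exporter, had a ratio of 0.780 and Apoe, a lipid carrier, of 1.26, both within the limit. Of 23 fatty acid genes, Angptl4 was higher at 1.51 (1.022 to 2.26) and 0 were lower. Plin2 had 301 CPM in the library labelled HFpEF-FoxO1-sh, 262 CPM in HFpEF-scr and 148 CPM in Control, so the higher level seen in HFpEF-scr was also present in the library labelled HFpEF-FoxO1-sh. Cpt1a had 67.6 CPM in the library labelled HFpEF-FoxO1-sh, 70.2 CPM in HFpEF-scr and 41.0 CPM in Control, and Slc27a1 had 20.6 CPM in the library labelled HFpEF-FoxO1-sh, 28.7 CPM in HFpEF-scr and 8.35 CPM in Control.

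Interferon genes had 2 higher and 0 lower of 30, Gbp3 at 1.85 (1.40 to 2.47) and Ifit1 at 1.60 (1.18 to 2.20). In that list 27 ratios were above 1, with a median log2 ratio of 0.22, which was -0.0041 with at most 10% mitochondrial UMIs. Ifit1 had a log2 ratio of -0.0088 with at most 10%, 0.74 above and -0.080 in members with a Timd4 UMI. Its difference was thus lost below 10%, and its sign turned slightly in those members. Immediate early genes had 0 called of 17 and a median of 0.29, and heat shock genes 0 of 13 and 0.27. Genes of both lists respond to tissue dissociation, whose part was not tested. MHC class II had 0 called of 9, with Cd74 at 1.38 and H2-Aa at 1.31 and a median log2 ratio of 0.10. The median was 0.49 with at most 10% mitochondrial UMIs, 0.43 above and 1.37 with at most 10% in thinned cells. Cd74 had log2 ratios of 0.70, 0.54 and 1.502 under those settings, and so stood past 1.5-fold with at most 10%, thinned or not. In the inflammatory list Ptgs2 was higher, though with a log2 ratio of -0.0018 with at most 10%, and Il10 and Clec4e lower, Il10 at 0.493 (0.350 to 0.691).

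The insulin and FoxO list had 0 called of 21 for HFpEF-FoxO1-sh over HFpEF-scr, and 0 of 20 for HFpEF-scr over Control. Txnip, a glucose-responsive gene, had 954 CPM in the library labelled HFpEF-FoxO1-sh, 762 CPM in HFpEF-scr and 758 CPM in Control, a ratio of 1.25 (1.21 to 1.30) for HFpEF-FoxO1-sh over HFpEF-scr. Irs2, an insulin receptor substrate, had a ratio of 0.982 (0.793 to 1.22).

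Cell cycle genes had 0 higher and 9 lower of 19, with a median log2 ratio of -0.48. Top2a (topoisomerase II) had 19.2 CPM in the library labelled HFpEF-FoxO1-sh, 40.6 CPM in HFpEF-scr and 34.1 CPM in Control, a ratio of 0.472 (0.385 to 0.578). Mki67 (the Ki-67 antigen) had 14.1 CPM in the library labelled HFpEF-FoxO1-sh, 21.4 CPM in HFpEF-scr and 29.9 CPM in Control. Few cells carried them: members with at least 5 UMIs over 9 of the genes numbered 14 (1.22%, 0.669 to 2.04) for HFpEF-FoxO1-sh, 21 (2.59%, 1.61 to 3.93) for HFpEF-scr and 21 (2.97%, 1.85 to 4.50) for Control. The list median was -1.34 with at most 10% mitochondrial UMIs and -0.61 above, but 0.061 in thinned cells, where Top2a had a log2 ratio of 0.019.

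By the same limits, the 12 highest ratios were those of Alas2, Mb, Tnni3, Pln, Gm9889, Lefty1, Gm35154, Mrrf, Gstk1, Ccdc66, Tnnt2 and Hbb-bt, between 2.22 and 1.87. Mb, Tnni3, Pln and Tnnt2 are heart muscle genes, and Alas2 and Hbb-bt red cell genes. Tnni3 (cardiac troponin I) had 19.2 CPM in the library labelled HFpEF-FoxO1-sh, 9.003 CPM in HFpEF-scr and 10.5 CPM in Control. Hbb-bt turned to a log2 ratio of -0.14 without haemoglobin-rich cells. The 12 lowest were those of Ptprb, Cenpf, Pclaf, Mgll, Nusap1, Flt1, Olfml3, Ccl8, Tspan7, Ndrg1, Adamts1 and Top2a, between 0.342 and 0.472. Ptprb and Flt1 are endothelial genes, and without marked doublets the log2 ratios of Ptprb, Flt1, Mgll and Tspan7 were 1.24, 0.77, 1.27 and 0.63. Olfml3 turned to 0.48 with at most 10% mitochondrial UMIs in thinned cells.

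**Figure D5:**
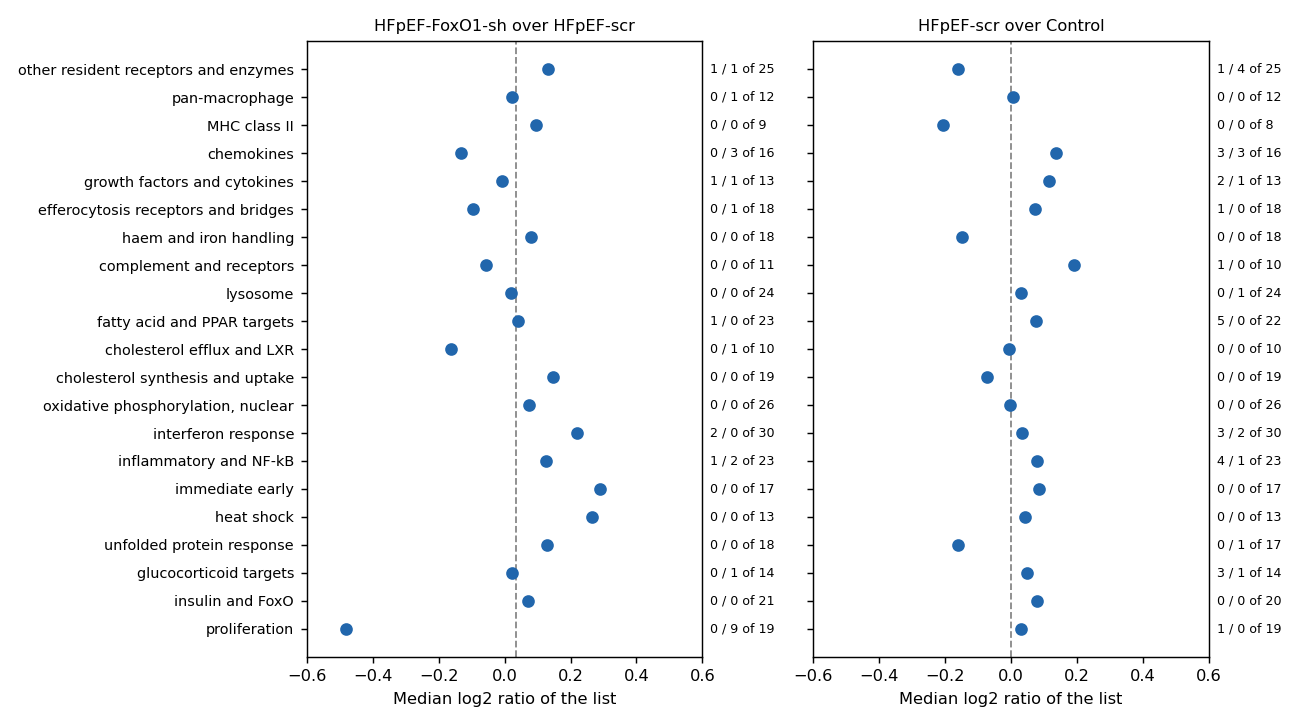
Median log2 ratio of each gene list in resident macrophages for HFpEF-FoxO1-sh over HFpEF-scr (left) and HFpEF-scr over Control (right), with the median of all genes tested as a dashed line, and genes higher, lower and measured written at the right. Cell cycle genes stand at -0.48 in the left panel, and the fatty acid list holds 5 higher of 22 in the right one.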

How the data were processed

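UMI counts per gene and cell barcode were deposited by the authors for 3 libraries, made with Cell Ranger 6.1.2 on mm10, per the submitters' processing notes. Annotation release and read mapping options are not given in the sources used here. The files hold 30360 genes, and the lowest barcode total was 500 UMIs in each library, so they were filtered before deposit. Library totals were 144561934 UMIs for HFpEF-FoxO1-sh, 154385813 for HFpEF-scr and 146230530 for Control.

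The deposited counts were summed over members per library and scaled to 1000000 UMIs per library (CPM). Ratios have exact conditional binomial intervals, CPM exact Poisson intervals and shares Clopper-Pearson intervals, which cover counting error only. The members and the gene lists were chosen with earlier results of these data known. Of 516 listed genes in 44 lists, 515 were in the files. Named genes are the 12 highest and 12 lowest ratios of each comparison, up to 4 genes of each list with the largest ratio, the 10 highest and 10 lowest against other macrophages, and the rule genes, Cd163, Cd68, Adgre1, Csf1r, Mrc1, Foxo1 and MHC class II genes. Ccl24, Cpt1a and Cxcl1 were named after their values were seen, as were the sets of members with Cd209f, Cxcl13 or cell cycle UMIs. Thinning drew 2000 UMIs per cell without replacement. Doublets were marked with Scrublet at an expected rate of 12% and kept. Promoters are on GRCm38. Alternatives changed the mitochondrial limit, the depth, the resident sum, doublets, shared barcodes, barcodes with other-cell RNA, scaling, gene filters, the pseudocount and the highest cells. The software was scanpy 1.11.5 with matplotlib 3.10.9 and scipy 1.17.1, under Python 3.11.15 with pandas 2.3.3 and numpy 2.4.6.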

Additional observations from a re-analysis of the deposited data

How the results depend on the processing

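No paired analysis was possible because each group has 1 library. Shares are given as ratios for HFpEF-FoxO1-sh over HFpEF-scr (FS) and HFpEF-scr over Control (SC). With at most 10% mitochondrial UMIs the share of kept barcodes was 1.95 (FS) and 1.14 (SC), the share of C1q macrophages 1.29 (FS), and 483 genes were lower (FS). With at most 50% the share of C1q macrophages was 1.28 (FS). Between 10% and 20% the shares of kept barcodes were nearly equal, with a ratio of 0.999, and that of C1q macrophages turned over to 0.882 (FS). Thinned to 2000 UMIs, the share of kept barcodes was 1.51 (FS) and 0.830 (SC) and that of C1q macrophages 1.39 (FS) and 0.675 (SC), with 116 genes lower (FS) and 145 higher (SC). Thinned with at most 10%, these shares were 2.13 (FS) and 0.861 (SC), and 1.61 (FS) and 0.586 (SC), with 107 genes higher (FS) and 67 higher and 67 lower (SC). Without barcodes holding other-cell RNA 160 genes were lower (FS). At 100 UMIs per gene 116 were higher and 88 lower (FS), and 103 higher and 85 lower (SC). The settings on a Timd4 UMI, on haemoglobin, on the band from 10% to 20% and on both limits together were chosen after seeing the data.

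Log2 ratios of these genes changed sign. The smallest of the values show a lost difference rather than an opposite one. For SC they were Gbp3 0.20 and Mgll -1.76 with at most 10% mitochondrial UMIs, Mgll -1.39 and Tspan7 -0.72 without marked doublets, C3 -0.36, Ebf1 -0.016 and Lum -0.19 thinned, Prnp 0.0076, Sparc 0.041 and Il1b -0.17 without other-cell RNA, Hbb-bt 0.40 without haemoglobin-rich cells, Thbs1 0.012 between 10% and 20% and 0.33 without the highest cells, and Id2 -0.31, Lum -0.32 and Cxcl1 -0.64 under both limits. For FS they were Ptgs2 -0.0018 and Ifit1 -0.0088 with at most 10%, Flt1 0.77, Mgll 1.27, Ptprb 1.24 and Tspan7 0.63 without marked doublets, Ms4a8a -0.023 and Top2a 0.019 thinned, Lum 0.25 and Ifit1 -0.080 in members with a Timd4 UMI, Hbb-bt -0.14 without haemoglobin-rich cells and -4.14 between 10% and 20%, and Fcna -0.13, Ms4a8a -0.54 and Olfml3 0.48 under both limits. The cause was not tested. With 1 library per group, animal, preparation and condition cannot be told apart.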
